A study of Homo sapiens with 6 samples.

Results

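Transcripts of 10 genes for cell-surface and matrix proteoglycans and the sialomucin endomucin were followed in endothelial cells without CCM3. They were the 4 syndecans SDC1, SDC2, SDC3 and SDC4, the glypicans GPC1, GPC4 and GPC6, the matrix proteoglycans HSPG2 (perlecan) and BGN (biglycan), and EMCN (endomucin). The members were the rows of the deposited count table with these symbols, and all 10 were found among its 28514 rows. The 6 mRNA libraries came from CI-huVEC, human umbilical vein endothelial cells that have been immortalised. One group held K17, K18 and K19, each a single clone edited with CRISPR/Cas9 at exon 3 of CCM3 and labelled CCM3 -/-. The other held the wild-type lines WT 1, WT 2 and WT 4. Every library was from passage 31 and carries HKO as its clone label, a code left unexplained. Nothing states that the wild-type lines arose from separate clones, and p-values here cover no more than sample-to-sample spread, part of which may be technical. Loss of CCM3 and differences between clones cannot be told apart in this design.

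The glycocalyx is the coat of sugar-bearing proteins on the luminal face of endothelium. Syndecans span the membrane and glypicans are held to it by a lipid anchor, and both carry heparan sulfate chains that bind growth factors, chemokines, antithrombin and matrix proteins. Perlecan bears heparan sulfate in the basement membrane, biglycan is a small leucine-rich proteoglycan with chondroitin or dermatan sulfate, and endomucin is a heavily O-glycosylated sialomucin of venous and capillary endothelium. CCM3, also called PDCD10, is a gene mutated in familial cerebral cavernous malformations, which are lesions of dilated, leaky capillaries.

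Of the 10 genes, 4 were lower in the knockout clones (SDC2, BGN, EMCN and SDC4), 0 were higher, 4 were tested and not called (SDC1, SDC3, GPC1 and HSPG2), and 2 (GPC4 and GPC6) had too few counts to be tested. A gene was called when its adjusted p in the edgeR quasi-likelihood test, Benjamini-Hochberg adjusted over 14548 tested genes, was under 0.05. Many genes passed that test. The share called in either direction was 38.7%, with 20.8% called lower and 18% called higher in the knockout clones. In 4 members all 3 clones lay below all 3 wild-type lines, a pattern seen in 31.0% of tested genes, and in 0 members all clones lay above, a pattern seen in 24.5%. The counts of members called are therefore not set apart from this background, and the values of the single genes are given below. In bulk RNA, fewer cells that express a gene and less RNA per cell cannot be told apart.

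**Figure D1:**
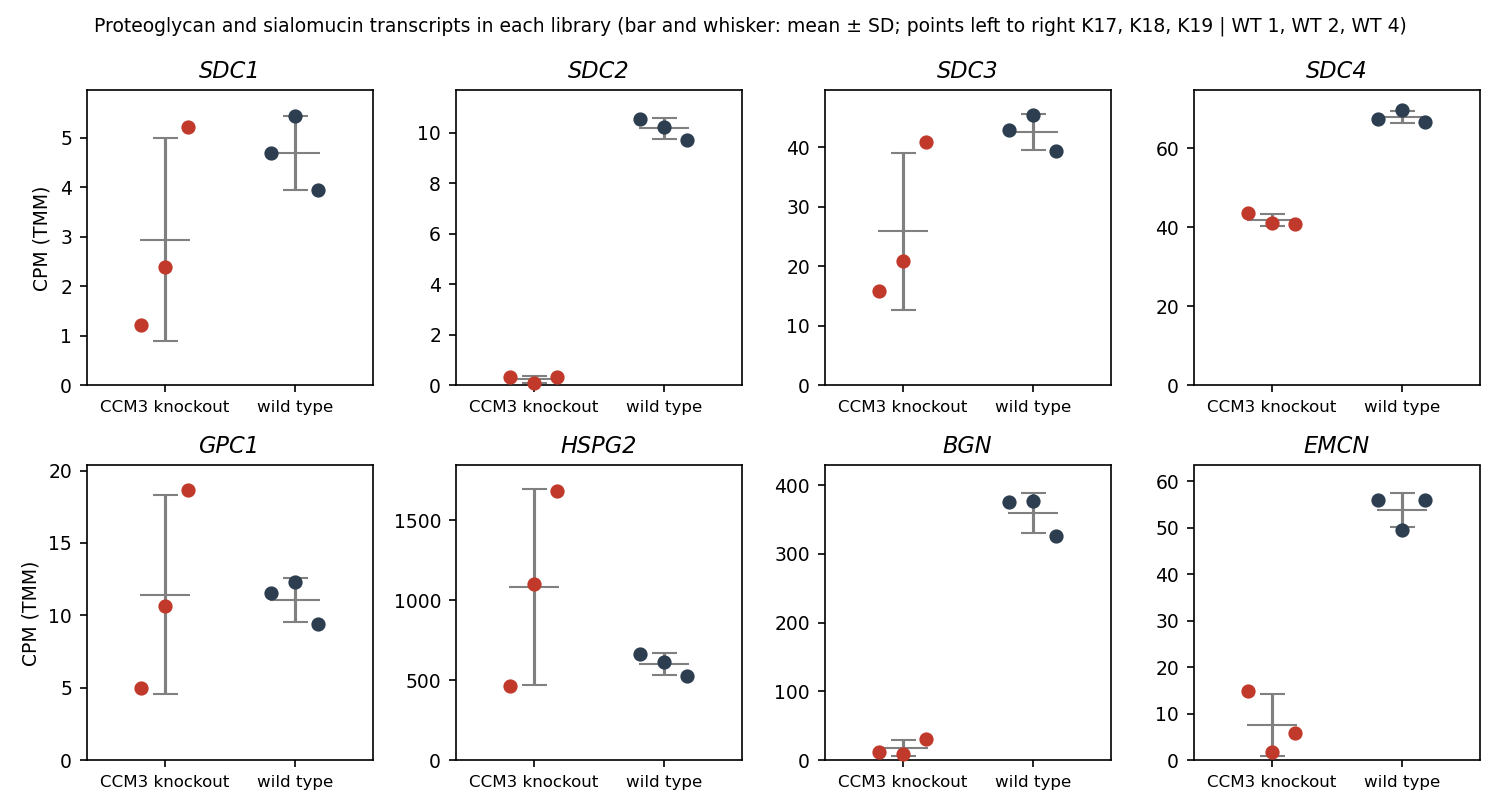
Level in CPM (counts scaled to library size and by TMM factors, linear axes starting at 0) of the 8 tested genes in each library, with knockout clones on the left and wild-type lines on the right of each panel and bars for mean ± SD of 3 libraries. The groups are separate for SDC2, SDC4, BGN and EMCN, and overlap for SDC1, SDC3, GPC1 and HSPG2.

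Total counts ranged from 28280417 to 32919491 per library, so 3 counts, the limit that a count of 0 allows, corresponded to between 0.0903 and 0.108 CPM. The targeted gene PDCD10 reached 42.3, 31.6 and 37.6 CPM in clones K17, K18 and K19, and 60.5, 60.7 and 61.6 CPM in lines WT 1, WT 2 and WT 4 (log2 fold change -0.71, SE 0.11, edgeR adjusted p = 0.00374). Gene counts do not show the edit itself. Of 14 endothelial markers all 14 were tested, and their summed level was 6756 to 7754 CPM in knockout clones and 4361 to 4670 CPM in wild-type lines. Of these markers, 11 were called higher, 0 lower and 3 not called, with a median log2 fold change of 0.89. CD34 and KDR, named again below, are among them. The knockout clones differed more among themselves, with a chi-square per degree of freedom of 21.0 to 74.4 between pairs of clones and 2.16 to 4.47 between pairs of wild-type lines. The libraries also differed in how gene levels varied with the GC content of the transcripts. Genes in the 20% with the highest GC content (58.6% and above) deviated from genes in the 20% with the lowest (42.4% and below) by -0.24, 0.65 and 0.58 on the log2 scale in K17, K18 and K19, and by -0.29, -0.22 and -0.47 in WT 1, WT 2 and WT 4. Of the 8 tested members, 5 have transcripts in the 20% with the highest GC content, so values with each library's GC trend removed are given beside theirs. With that trend removed, 8 of the endothelial markers were called higher and 1 lower, with a median log2 fold change of 0.46.

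Promoter sequences are shown for the called genes held in the set of promoters used here, which lacks SDC2. HSPG2, the most abundant member per length in the knockout clones, is shown too. Each is the 250 bases before the annotated start, 5′ to 3′ on the gene's own strand. Coordinates are those of GRCh38.p14 and not of the build of the counts. SDC4 lies at chr20:45348425-45348674 on the minus strand, BGN at chrX:153494730-153494979 on the plus strand, EMCN at chr4:100518023-100518272 on the minus strand and HSPG2 at chr1:21937311-21937560 on the minus strand. Capitals mark matches on either strand to any of 5 motifs, which can overlap each other. The GC box was searched as GGGCGG, and the KLF motif as CACCC. The TEAD motif was searched as GGAATG, and the TATA box as TATAAA. The AP-1 motif was searched as TGANTCA.
SDC4: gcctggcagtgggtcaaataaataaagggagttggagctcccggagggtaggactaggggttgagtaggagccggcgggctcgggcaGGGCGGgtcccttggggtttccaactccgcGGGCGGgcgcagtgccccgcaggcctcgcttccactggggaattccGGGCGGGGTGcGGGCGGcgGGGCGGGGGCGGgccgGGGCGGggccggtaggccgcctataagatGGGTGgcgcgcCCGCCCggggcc
BGN: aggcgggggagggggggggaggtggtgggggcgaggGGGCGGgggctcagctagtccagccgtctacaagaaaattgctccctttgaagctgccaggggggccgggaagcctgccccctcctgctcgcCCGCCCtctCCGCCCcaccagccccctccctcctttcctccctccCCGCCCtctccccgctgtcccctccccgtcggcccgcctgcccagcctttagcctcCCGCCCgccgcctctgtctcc
EMCN: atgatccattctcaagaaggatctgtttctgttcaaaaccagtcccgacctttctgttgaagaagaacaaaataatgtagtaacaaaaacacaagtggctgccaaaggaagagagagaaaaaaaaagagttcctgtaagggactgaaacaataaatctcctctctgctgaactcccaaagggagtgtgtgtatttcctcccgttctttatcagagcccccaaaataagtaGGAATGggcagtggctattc
HSPG2: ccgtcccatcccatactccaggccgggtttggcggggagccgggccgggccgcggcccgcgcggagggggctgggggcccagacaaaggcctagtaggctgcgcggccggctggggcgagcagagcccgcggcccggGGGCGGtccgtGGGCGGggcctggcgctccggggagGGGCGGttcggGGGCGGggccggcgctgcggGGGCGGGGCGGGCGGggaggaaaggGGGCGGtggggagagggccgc
SDC4 held 8 GC boxes and 2 CACCC matches, BGN 5 GC boxes, HSPG2 8 GC boxes, and EMCN no GC box and 1 TEAD match. Over 35116 promoters of the same length, 42.6% held a GC box, 54.7% a CACCC match, 11.9% a TEAD match, 6.57% an AP-1 match and 10.7% a TATA match. The EMCN stretch had a GC content of 41.2%, against 73.6%, 74.0% and 82.8% for SDC4, BGN and HSPG2 and a median of 58.0% over all promoters. The set of promoters held 9 of the 10 members, and SDC2 is named only. The 9 stretches held 0 AP-1 matches. A match describes the letters and is not evidence of binding.

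Among the syndecans, SDC2 and SDC4 fell in the knockout clones. SDC2, a syndecan that takes part in endothelial sprouting, was at 0.307, 0.0723 and 0.311 CPM in clones K17, K18 and K19, and at 10.6, 10.2 and 9.73 CPM in WT 1, WT 2 and WT 4. The clones were thus close to the detection limit, with 20 counts in all against 970 in the wild-type lines. The summed level was 43.8 times higher in wild type than in the clones (95% counting interval 28.2 to 72.0, which covers counting error only), and the log2 fold change was -5.43 (SE 0.36, edgeR adjusted p = 0.000198). The reads that remain do not show whether all cells or a few cells carry the transcript.

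SDC4, the syndecan of focal adhesions, showed the smallest spread of the 8 tested members in both groups. It measured 43.6, 41.1 and 40.8 CPM in clones K17, K18 and K19, and 67.5, 69.6 and 66.7 CPM in WT 1, WT 2 and WT 4. All 3 clones lay below all wild-type lines, at 61.6% of the wild-type mean. The log2 fold change was -0.70 (SE 0.06, edgeR adjusted p = 0.000401), and -0.64 with the GC trend removed.

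SDC3 and SDC1 did not pass the test. SDC3, best known from neurons and muscle, was at 15.8, 20.96 and 40.8 CPM in clones K17, K18 and K19, and at 42.9, 45.4 and 39.5 CPM in WT 1, WT 2 and WT 4. K17 and K18 lay below the wild-type lines while K19 lay within their range, and the log2 fold change was -0.72 (SE 0.34, edgeR adjusted p = 0.134). With the GC trend removed it was -1.15 with adjusted p = 0.00916, and it was also called without K19 (-1.19, adjusted p = 0.00364) and by limma-voom with group weights (-0.84, adjusted p = 0.0406). Without K17 it was -0.45 (adjusted p = 0.26). SDC1, the syndecan of epithelia and plasma cells whose shed ectodomain is measured in plasma when the glycocalyx is damaged, was at 1.23, 2.39 and 5.22 CPM in clones K17, K18 and K19. In WT 1, WT 2 and WT 4 it was at 4.69, 5.45 and 3.95 CPM. Its clones again spread from below the wild-type lines into their range, with a log2 fold change of -0.67 (SE 0.49, edgeR adjusted p = 0.305). With the GC trend removed it was -1.06 (SE 0.39, adjusted p = 0.0677). It was -1.36 and called without K19 (adjusted p = 0.0289), and -0.30 without K17 (adjusted p = 0.452).

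The make-up of the syndecan transcripts was compared per transcript length, in FPKM. The summed syndecan level was 15.7, 15.5 and 18.2 FPKM in K17, K18 and K19, and 29.6, 31.2 and 29.0 FPKM in WT 1, WT 2 and WT 4. The groups did not overlap, and the exact permutation test (two-sided) gave p = 0.1, the smallest value that 3 against 3 libraries allow. SDC2 made up 0.309% ± 0.181 of the sum in knockout clones and 7.89% ± 0.267 in wild-type lines (SD, n = 3 each, exact permutation p = 0.1). SDC4 was the most abundant syndecan in every library, at 76.9% ± 9.83 of the sum in knockout clones and 70.3% ± 1.09 in wild-type lines (SD, n = 3 each, exact permutation p = 0.4).

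**Figure D2:**
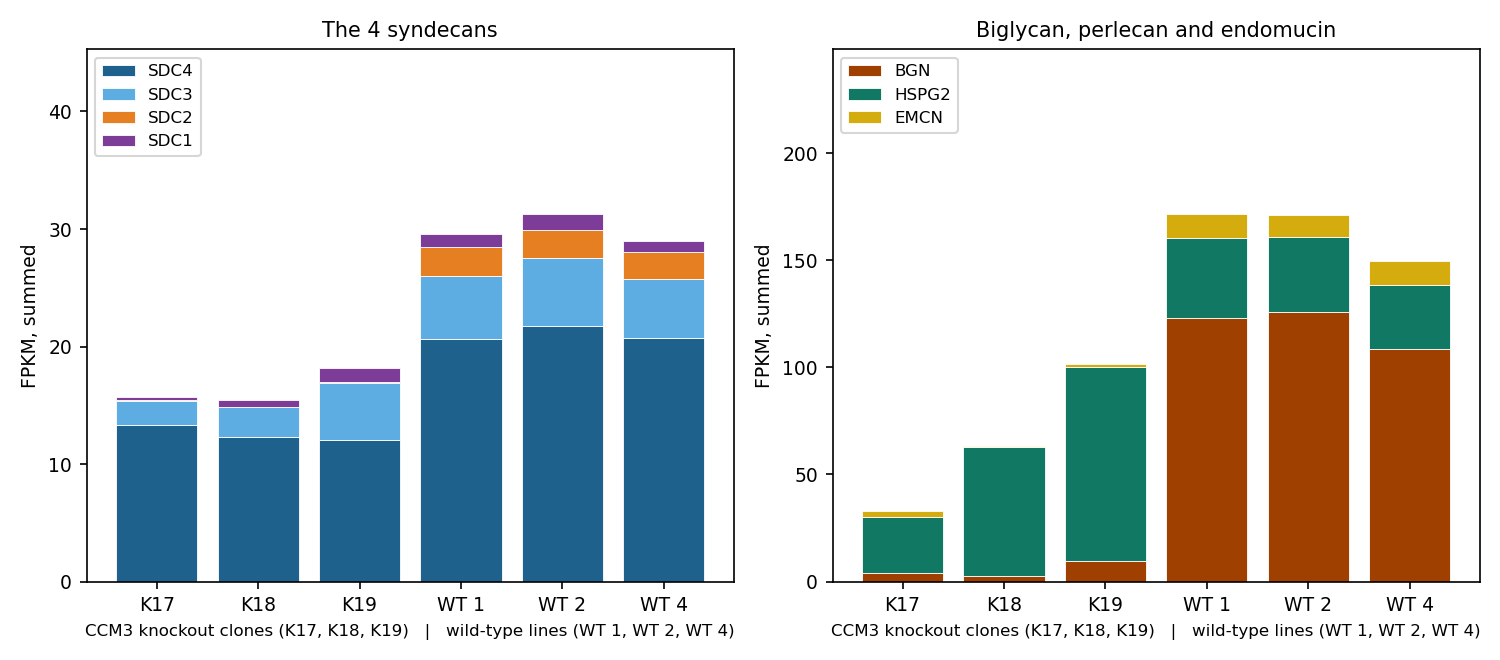
Stacked levels in FPKM (linear axes from 0) of the 4 syndecans, left, and of BGN, HSPG2 and EMCN, right, in each of the 3 knockout clones and 3 wild-type lines. The syndecan sum is 15.5 to 18.2 FPKM in the clones and 29.0 to 31.2 FPKM in the wild-type lines. HSPG2 is the largest part of the right-hand bars in the clones and BGN in the wild-type lines, while the level of HSPG2 itself overlaps between the groups.

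Of the 3 glypican members, only GPC1, the glypican best known from endothelium, had enough counts to be tested. It measured 5.01, 10.6 and 18.7 CPM in clones K17, K18 and K19, and 11.5, 12.3 and 9.38 CPM in WT 1, WT 2 and WT 4. The clones lay on both sides of the wild-type lines. The log2 fold change was 0.04 (SE 0.44, edgeR adjusted p = 0.942), and it was -0.68 (SE 0.24, adjusted p = 0.0585) with the GC trend removed, so its direction depends on the scaling. GPC4 had 0, 1 and 0 counts in K17, K18 and K19 and 0, 0 and 1 in WT 1, WT 2 and WT 4. GPC6 had 0, 1 and 0 counts in the clones and 0 in each wild-type line. Both were under the limit of 3 counts in every library, so no fold is given and expression was not detectable at this depth.

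BGN fell in all 3 clones. It was at 12.6, 8.35 and 30.6 CPM in clones K17, K18 and K19, and at 376, 377 and 326 CPM in WT 1, WT 2 and WT 4. The lowest wild-type line was thus far above the highest clone, and the log2 fold change was -4.39 (SE 0.49, edgeR adjusted p = 0.00132), a 20.9-fold difference. With the GC trend removed it was -4.81 (adjusted p = 0.000407). Leaving out 1 library gave -5.08 without K19 to -4.04 without K18. HAUS7 overlaps BGN on the opposite strand and the strand setting of the counting is not given. HAUS7 had 464, 684 and 598 counts in the clones and 694, 658 and 536 in the wild-type lines, while BGN had 369, 231 and 886 counts in the clones and 12445, 12537 and 9432 in the wild-type lines.

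HSPG2 varied widely between clones and did not pass the test. It was at 462, 1103 and 1683 CPM in clones K17, K18 and K19, and at 662, 615 and 526 CPM in WT 1, WT 2 and WT 4. K18 and K19 lay above and K17 below all wild-type lines, and the log2 fold change was 0.85 (SE 0.43, edgeR adjusted p = 0.156). It was 0.23 (SE 0.24, adjusted p = 0.468) with the GC trend removed, 1.22 and called without K17 (adjusted p = 0.0102), and 0.40 without K19 (adjusted p = 0.425). LDLRAD2, on the opposite strand of the same locus, had 255, 637 and 736 counts in K17, K18 and K19 and 259, 316 and 205 in WT 1, WT 2 and WT 4.

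Per length, the order of the 2 matrix proteoglycans differed between the groups in every library. The ratio of HSPG2 to BGN in FPKM was 6.28, 22.6 and 9.40 in K17, K18 and K19, and 0.301, 0.279 and 0.276 in WT 1, WT 2 and WT 4. Of the summed FPKM of all 10 genes, BGN made up 6.46% ± 2.75 in knockout clones and 60.7% ± 0.699 in wild-type lines, and HSPG2 66.6% ± 12.6 in knockout clones and 17.3% ± 0.848 in wild-type lines (SD, n = 3 each). That sum was 49.7, 81.1 and 123 FPKM in K17, K18 and K19, and 203, 205 and 181 FPKM in WT 1, WT 2 and WT 4. A larger share is thus not a higher level. In K17 HSPG2 made up 52.0% of the sum at 25.9 FPKM, below the 29.9 to 37.1 FPKM of the wild-type lines. In the knockout clones HSPG2 was followed by SDC4 and then by BGN, SDC3, GPC1, EMCN and SDC1, whose ranges overlap from each gene to the next, and by SDC2. In wild-type lines the order was BGN, HSPG2, SDC4, EMCN, SDC3, then GPC1 and SDC2 with overlapping ranges, and SDC1.

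EMCN, which limits leukocyte adhesion to resting endothelium, fell in all 3 clones and by unequal amounts. It was at 14.8, 1.84 and 5.95 CPM in clones K17, K18 and K19, and at 56.1, 49.5 and 55.9 CPM in WT 1, WT 2 and WT 4. The groups did not overlap. The log2 fold change was -2.83 (SE 0.65, edgeR adjusted p = 0.0166), and -2.61 (adjusted p = 0.0119) with the GC trend removed. The call was lost when any single wild-type line was left out (adjusted p = 0.0567 without WT 1, 0.0503 without WT 2, 0.0581 without WT 4) and without K19 (adjusted p = 0.0594). Without K17 the log2 fold change was -3.77 (adjusted p = 0.00268).

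**Figure D3:**
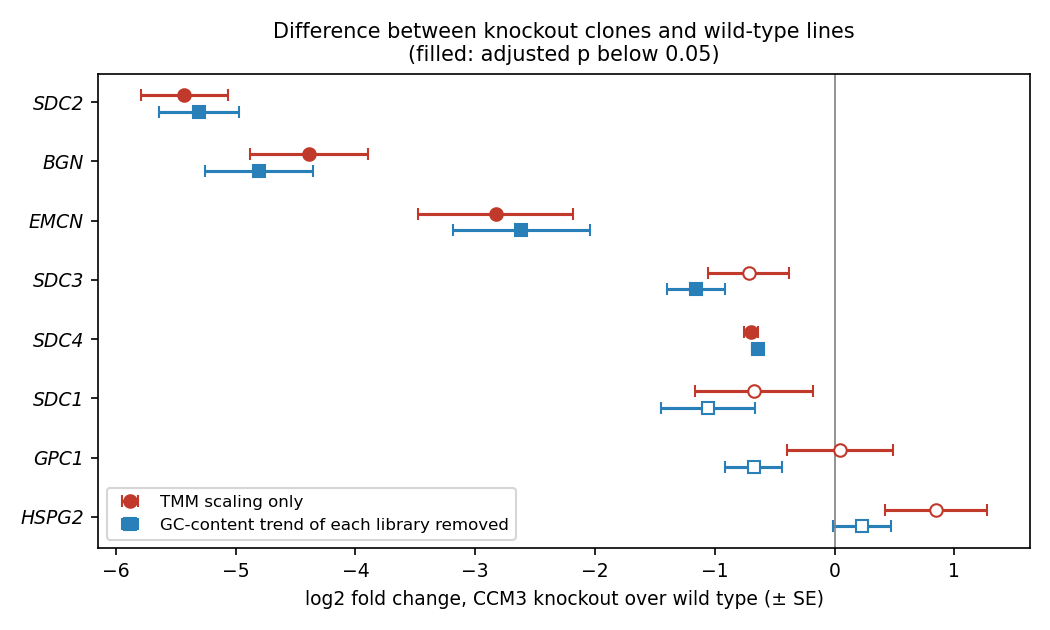
Log2 fold change, knockout over wild type, of the 8 tested genes with its standard error, from the edgeR fit with TMM scaling (circles) and with each library's GC trend removed (squares), where filled symbols have an adjusted p under 0.05. SDC2, BGN, EMCN and SDC4 are called lower in both fits, SDC3 (-0.72 and -1.15) in the second, and GPC1 (0.04 and -0.68) changes sign.

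The authors' deposited table, made from the same libraries and so not independent, gave the same 4 genes an adjusted p under 0.05. In the authors' deposited table the log2 fold change was -4.84 for SDC2, -3.29 for BGN, -1.72 for EMCN and -0.68 for SDC4, and HSPG2 (0.75, adjusted p = 0.0657) and SDC3 (-0.65, adjusted p = 0.0713) did not pass. For SDC2, BGN and EMCN these changes are smaller than in the edgeR fit (-5.43, -4.39 and -2.83). The cause of that gap was not tested.

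SDC2 was left out of the comparison of clones, since K18 held 2 counts of it, under the limit of 3. The SD of log2 CPM among clones was above the all-gene median of 0.190 in 6 of the other 7 tested members. It was 1.51 for EMCN and 0.05 for SDC4, the exception. Among wild-type lines the SD of the same 6 members was also above the all-gene median, which was 0.0699 there, so a spread above the median was not particular to the clones. EMCN differed 8.06-fold between its highest and lowest clone and 1.13-fold between wild-type lines, against medians over all genes of 1.28 among clones and 1.10 among wild-type lines. SDC1, SDC3, GPC1 and HSPG2 shared 1 order, lowest in K17 and highest in K19. How many of all tested genes have that order was not counted. Their transcripts are all in the 20% with the highest GC content, with a GC content of 59.7% to 64.9%. Whether the order goes with GC content was not tested. BGN, at 61.2%, was lowest in K18, as was EMCN.

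**Figure D4:**
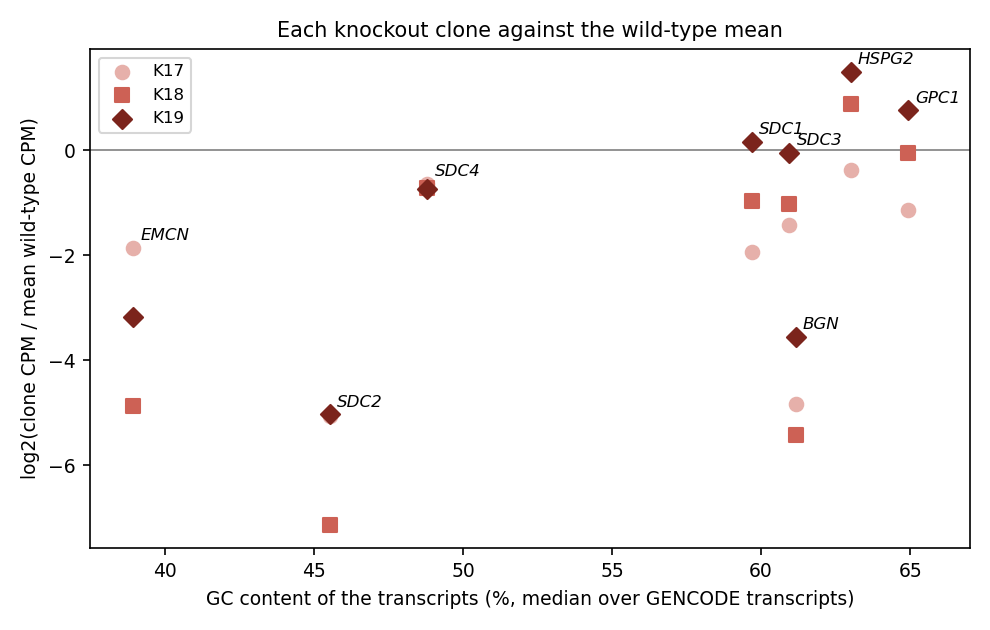
Log2 ratio of each knockout clone to the wild-type mean in CPM (vertical axis) against the GC content of the gene's transcripts in percent (horizontal axis), with 1 symbol per clone. The 3 clones nearly coincide for SDC4 and spread by over 3 log2 units for EMCN, whose lowest clone is K18, while the K18 symbol of SDC2 rests on 2 counts.

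The genes that build, trim and bind the sugar chains were read from 10 lists, of which 150 genes were tested and 83 called (39 higher, 44 lower). Each list is described by its counts, and 38.7% of all tested genes were called. The lists were chosen with earlier results of these data known, so a share above 38.7% is no result about a list. The median log2 fold change of all tested genes was 0.00.

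Of 18 other proteoglycan genes tested, 4 were higher, 5 lower and 9 not called, with a median log2 fold change of -0.11. Without K17, 15 were called. THBD, the anticoagulant receptor thrombomodulin that can carry chondroitin sulfate, was at 137 ± 28.0 CPM in knockout clones and 11.6 ± 0.136 CPM in wild-type lines. FMOD (fibromodulin), a small leucine-rich proteoglycan like biglycan, was at 5.87 ± 2.35 CPM in knockout clones and 0.526 ± 0.0375 CPM in wild-type lines. Unlike BGN, both rose (log2 fold changes 3.57 and 3.47). GPC2, another glypican, fell to 1.66 ± 0.179 CPM in knockout clones, against 6.06 ± 0.198 CPM in wild-type lines (adjusted p = 0.000287). ESM1 (endocan), a proteoglycan secreted by endothelium, was at 465 ± 36.1 CPM in knockout clones and 622 ± 21.6 CPM in wild-type lines, a log2 fold change of -0.42 that was not called with the GC trend removed (-0.21, adjusted p = 0.0747).

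In the list of other endothelial sialomucins and mucin-type proteins, 7 genes were tested, of which 5 were higher, 0 lower and 2 not called, with a median log2 fold change of 1.49. The 5 include PECAM1, an adhesion molecule of the immunoglobulin superfamily that is not a sialomucin and is also among the endothelial markers (log2 fold change 0.91). PODXL (podocalyxin), which sets up the apical surface of the vessel lumen, was at 1187 ± 157 CPM in knockout clones and 268 ± 11.3 CPM in wild-type lines, and CD34 was at 99.6, 163 and 42.1 CPM in clones K17, K18 and K19 and at 9.18 ± 0.175 CPM in wild-type lines. PODXL rose by 2.15 (SE 0.11) and CD34 by 3.47 (SE 0.49) on the log2 scale.

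Chondroitin and dermatan sulfate are the chains that biglycan carries. Of 13 tested genes that make them, 9 were lower, 2 higher and 2 not called, with a median log2 fold change of -0.67, and the counts were 9 and 2 with the GC trend removed. DSE, the epimerase that turns chondroitin into dermatan sulfate, fell to 10.3 ± 3.31 CPM in knockout clones, against 51.7 ± 0.976 CPM in wild-type lines. CHST15, a sulfotransferase of highly sulfated chondroitin, fell to 0.609 ± 0.229 CPM in knockout clones, against 8.54 ± 1.12 CPM in wild-type lines. The sulfotransferase CHST11 rose by 0.42 on the log2 scale (54.7 ± 3.04 CPM in knockout clones, 40.9 ± 1.58 CPM in wild-type lines). CHST12, another sulfotransferase, was at 9.43 ± 2.93 CPM in knockout clones and 5.50 ± 0.262 CPM in wild-type lines (adjusted p = 0.0454) and lost its call in 8 of 18 alternatives.

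The genes that make heparan sulfate serve the syndecans, glypicans and perlecan. Of 11 tested, 3 were lower, 1 higher and 7 not called, with a median of -0.02, and 2 were called with the GC trend removed. That count was 1 without WT 1 or WT 2, 2 without WT 4 or K19 and 7 without K17. The polymerase gene EXT1 was at 126 ± 6.07 CPM in knockout clones and 153 ± 6.02 CPM in wild-type lines (log2 fold change -0.28), and -0.16 with adjusted p = 0.0662 with the GC trend removed. EXTL2, a glycosyltransferase related to EXT1, was at 53.2 ± 15.01 CPM in knockout clones and 92.5 ± 3.86 CPM in wild-type lines, and lost its call in 4 of 18 alternatives. HS3ST1, which makes the antithrombin-binding motif, was at 1.75 ± 0.706 CPM in knockout clones and 0.332 ± 0.0905 CPM in wild-type lines (2.38, and 1.92 with adjusted p = 0.0543 with the GC trend removed).

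The linker and sugar-precursor genes gave 1 higher, 5 lower and 12 not called of 18 tested, with a median of -0.10, and 12 were called without K17 and 3 without WT 1. ACPL2 (current symbol PXYLP1), the xylose phosphatase of the linker, fell to 0.630 ± 0.134 CPM in knockout clones, against 3.87 ± 0.543 CPM in wild-type lines. IMPAD1, a phosphatase needed for sulfation, was at 132 ± 15.01 CPM in knockout clones and 189 ± 7.23 CPM in wild-type lines. XYLT2, the xylosyltransferase that starts the chains, was at 41.4 ± 12.5 CPM in knockout clones and 25.4 ± 0.981 CPM in wild-type lines (adjusted p = 0.0495), and lost its call in 8 of 18 alternatives.

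The extracellular enzymes that edit heparan sulfate included a pair with opposite changes. SULF2 and SULF1 both remove sulfate from heparan sulfate outside the cell. SULF2 was at 344, 428 and 350 CPM in clones K17, K18 and K19, and at 34.1, 35.0 and 34.7 CPM in WT 1, WT 2 and WT 4. SULF1 was at 2.76, 0.867 and 0.277 CPM in clones K17, K18 and K19, and at 158, 139 and 143 CPM in WT 1, WT 2 and WT 4. Neither gene's groups overlapped. The log2 fold changes were 3.43 (SE 0.10) for SULF2 and -6.80 (SE 0.58, edgeR adjusted p = 0.000456) for SULF1, and both were called in all 18 alternatives. Without K17 the value for SULF1 was -8.00. HPSE, the heparanase that cuts the chains, rose by 0.88 on the log2 scale (32.3 ± 3.74 CPM in knockout clones, 17.6 ± 1.16 CPM in wild-type lines). Of the 9 tested genes for remodelling and shedding, 4 were higher, 1 lower and 4 not called (median 0.19), and 3 were called when any single wild-type line was left out.

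**Figure D5:**
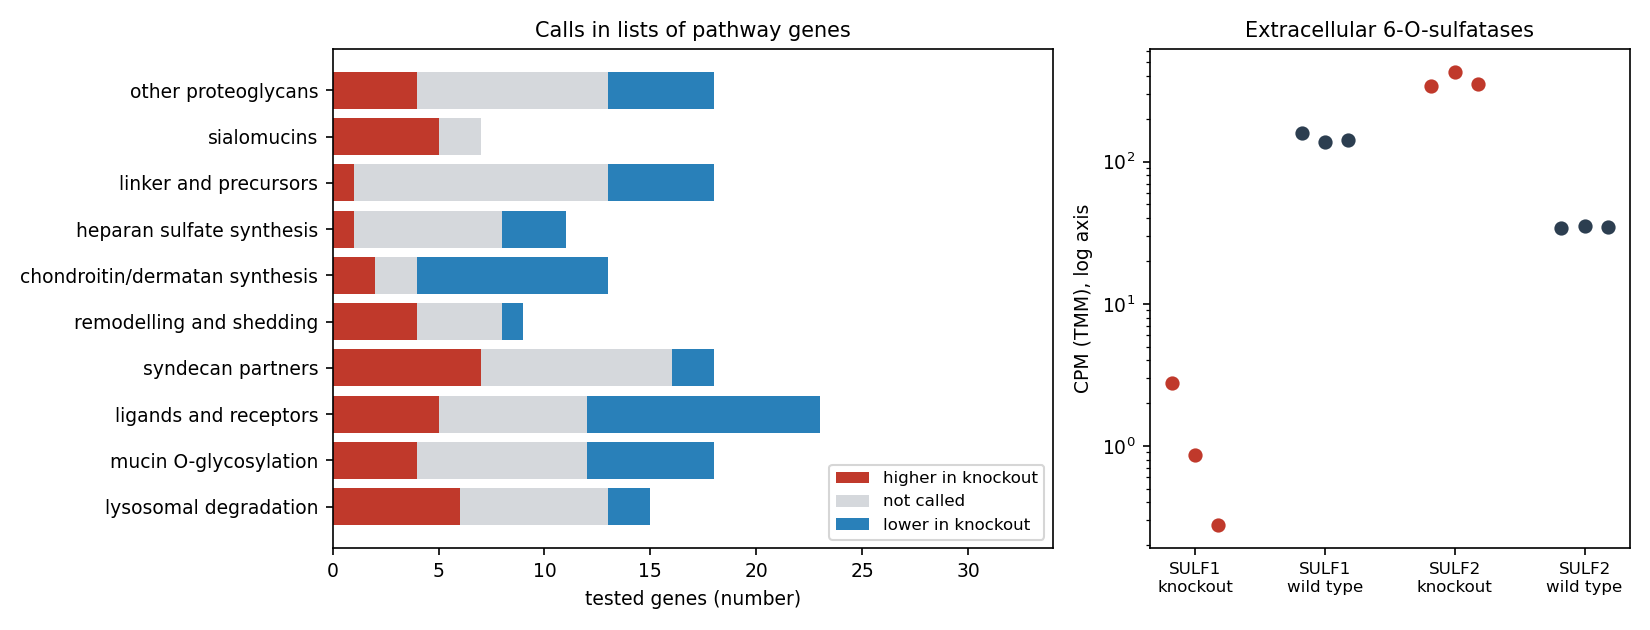
Left, number of tested genes per list that were called higher in knockout clones, not called, or called lower. Right, SULF1 and SULF2 in each library in CPM on a log axis, knockout clones left of wild-type lines for each gene, with SULF1 below 3 CPM in every clone and SULF2 at 344 to 428 CPM.

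Cytoplasmic and membrane partners of syndecans gave 7 higher, 2 lower and 9 not called of 18 tested, with a median of 0.32. Counts were 16 without K17, 5 without WT 1 and 4 without WT 2 or WT 4. EZR (ezrin), which ties membrane proteins to actin, rose to 433 ± 46.8 CPM in knockout clones, against 166 ± 6.39 CPM in wild-type lines. Its relative RDX (radixin) was at 142 ± 14.2 CPM in knockout clones and 179 ± 6.75 CPM in wild-type lines (log2 fold change -0.34, not called in 5 of 18 alternatives). CASK, a scaffold that binds the syndecan tail, fell to 21.2 ± 1.84 CPM in knockout clones, against 31.9 ± 2.06 CPM in wild-type lines. PDCD6IP (ALIX), which works with syndecans in exosome formation, rose by 0.38 on the log2 scale.

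Markers of other cell types were read beside these results. The 10 fibroblast markers summed to 59.0 to 315 CPM in knockout clones and 15.9 to 17.3 CPM in wild-type lines, with 5 of the 10, LUM, DCN and THY1 among them, under 1 CPM. Most of that sum in the clones was PI16, at 53.9, 120 and 266 CPM in clones K17, K18 and K19, and at 1.18, 1.41 and 0.900 CPM in lines WT 1, WT 2 and WT 4. The 12 pericyte and smooth muscle markers summed to 1548 to 1892 CPM in knockout clones and 1334 to 1438 CPM in wild-type lines. Of these, 7 were under 1 CPM and ABCC9 was at 0 in all libraries. Only 6 were tested, of which 2 were higher, 3 lower and 1 not called. Their median log2 fold change was -0.17, and -0.55 with the GC trend removed, so the sum does not describe most of them. MCAM is also among the endothelial markers. The 8 epithelial markers summed to 352 to 629 CPM in knockout clones and 243 to 262 CPM in wild-type lines. Of these, 4 were under 1 CPM (EPCAM, CDH1, CLDN4 and ESRP1), with CDH1 and ESRP1 at 0. The 4 tested gave 3 higher, 0 lower and 1 not called, and the epithelial marker MUC1 is also in the list of sialomucins. The 10 leukocyte markers summed to 69.9 to 78.7 CPM in knockout clones and 100.4 to 110 CPM in wild-type lines, with 7 under 1 CPM. Of the 4 tested, 2 were higher, 1 lower and 1 not called, with a median log2 fold change of 1.47, unlike the lower sum. The part that markers of other cell types play in these results was not tested.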

How the data were processed

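Libraries of 6 CI-huVEC samples were made from total RNA by a stranded mRNA protocol, per the labels. STAR and HTSeq and the builds hg19 and GRCh37 are named without versions, per the submitters' processing notes. Annotation, strand setting and filters: not given in the sources used here. The authors deposited whole-number counts per gene symbol, not normalized, and FPKM beside them, per the file headers. A second table deposited by the authors held a normalized signal averaged per gene (baseMean, per the file headers), a log2 fold change with its SE, and p-values with adjusted p-values.

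Counts were tested with edgeR 4.0.16 in R 4.3.3 (quasi-likelihood F test, robust, two-sided, TMM factors, filterByExpr with minimum counts of 10 and 15 in total), adjusted by Benjamini-Hochberg over 14548 genes. The SE is the absolute log2 fold change divided by the square root of F. Levels are CPM with TMM factors. Gene levels were compared per length in FPKM, and shares by exact permutation. Intervals on count ratios are exact 95% intervals. Before averaging, no pair of libraries agreed within sampling noise.

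Alternatives, 18 in all, were other scalings and filters, edgeR without robust estimation, DESeq2 1.42.0, limma 3.58.1 (voom, group weights, and log2 of FPKM plus 1 or 0.1), removal of each library's lowess trend (span 0.3) on GC content, and each library left out. GC content was the median over GENCODE transcripts, matched for 13249 genes.

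The members and lists were chosen with earlier results of these data known. The text names PDCD10, all members and, per list, the called genes with the lowest adjusted p, up to 2 in either direction, with at least 1 CPM in a group. Marker genes are named beside the result they touch.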

Additional observations from a re-analysis of the deposited data

How the results depend on the processing

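SDC2, SDC4 and BGN were lower and called in all 18 alternatives, SDC4 by -0.74 to -0.64 on the log2 scale. SDC2 ranged from -5.68 to -1.68, with -1.68 on log2 of FPKM plus 1, which understates low genes. The number of members called was 3 to 5, against 4. It was 3 without any single wild-type line, when EMCN was lost, and 5 with the GC trend removed, with group weights, without K17 (HSPG2 then called higher) and without K19. Calls over all genes numbered 3020 to 9267 when 1 library was left out (9267 without K17; 3081, 3360 and 3020 without WT 1, WT 2 and WT 4), against 5637. GPC1, at 0.04, turned negative with library totals (-0.0079), limma-voom (-0.15), group weights (-0.15), log2 of FPKM plus 1 (-0.090) or plus 0.1 (-0.17), the GC trend removed (-0.68) and without WT 4 (-0.06), and ranged from -0.49 to 0.41 with 1 library left out. The cause was not tested. Of 5637 calls, 5282 had a GC content and could be tested with the GC trend removed. Of these, 4162 were among the 5670 calls made with that trend removed. No paired analysis was possible because the replicate numbers follow only the listing and match no library of one group to one of the other. Genes under 3 counts per library were below what this depth can show.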

Other observations

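Genes that degrade glycosaminoglycans in lysosomes gave 6 higher, 2 lower and 7 not called of 15 tested, with a median log2 fold change of 0.31, and 5 were called without WT 4. HYAL1, a hyaluronidase, was at 66.6 ± 7.47 CPM in knockout clones and 4.42 ± 0.393 CPM in wild-type lines (SD, n = 3 each). SGSH, the heparan N-sulfatase, was at 108 ± 20.8 CPM in knockout clones and 45.9 ± 2.44 CPM in wild-type lines. IDS, the iduronate sulfatase, fell to 70.1 ± 3.76 CPM in knockout clones, against 97.1 ± 2.21 CPM in wild-type lines. ARSB, which removes sulfate from chondroitin and dermatan sulfate, was at 27.4 ± 1.41 CPM in knockout clones and 32.3 ± 0.613 CPM in wild-type lines, and lost its call in 11 of 18 alternatives.

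Genes for the O-glycans of mucins such as endomucin gave 4 higher, 6 lower and 8 not called of 18 tested, with a median of 0.02. The initiating transferase GALNT12 was at 28.9 ± 4.58 CPM in knockout clones and 2.14 ± 0.237 CPM in wild-type lines, while GALNT10 fell to 144 ± 9.98 CPM in knockout clones, against 330 ± 7.75 CPM in wild-type lines. ST6GALNAC1, a sialyltransferase, was at 3.95 ± 2.00 CPM in knockout clones and 0.0919 ± 0.0579 CPM in wild-type lines. Its wild-type level was close to the limit of 3 counts, with 3, 5 and 1 counts in WT 1, WT 2 and WT 4. GCNT1, which branches the chains, was at 13.2 ± 1.27 CPM in knockout clones and 34.7 ± 1.16 CPM in wild-type lines. Ligands and receptors that use heparan sulfate gave 5 higher, 11 lower and 7 not called of 23 tested, with a median of -0.42. The VEGF receptor KDR rose to 375 ± 22.5 CPM in knockout clones, against 155 ± 9.33 CPM in wild-type lines, and the FGF receptor FGFR1 to 146 ± 2.69 CPM in knockout clones, against 84.5 ± 4.29 CPM in wild-type lines. ROBO1, a receptor for SLIT proteins, fell to 6.55 ± 0.689 CPM in knockout clones, against 53.0 ± 3.08 CPM in wild-type lines. FGF5, a secreted growth factor, was under the limit of 3 counts in K17 and K19 and at 0.181 CPM in K18, and at 5.42 ± 0.285 CPM in wild-type lines.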
